A study of Rattus norvegicus with 18 samples.

Results

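Among the 32754 genes counted in rat bladder tissue, 36 met a set of conditions for genes raised at least 2-fold in the detrusor of spinal cord–injured rats, both with vehicle and with inosine, but not set apart in the mucosa with vehicle. They were chosen by measured values. Counts were divided by the total of their library and multiplied by 1000000 (CPM), and a gene was kept when its mean exceeded 5 CPM in the detrusor of SCI-vehicle or SCI-inosine rats, when the lowest of those 6 libraries lay above the highest of the 3 Control libraries, and when both injured means were at least 2-fold the Control mean after 0.5 CPM was added to each. The gene also had to lie within 4-fold of its detrusor level in Control mucosa, and its SCI-vehicle and Control ranges had to overlap in the mucosa. Higher levels in both injured detrusor groups, and the overlap of SCI-vehicle with Control mucosa, are therefore properties of the choice and not findings. The choice did not use the difference between SCI-inosine and SCI-vehicle detrusor, although asking for high levels in both groups favors genes whose levels there are alike. It used no value of SCI-inosine mucosa.

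Detrusor and mucosa were taken from wild-type rats in 3 groups, with 3 libraries per tissue and group and 18 libraries in all. Control rats were uninjured and untreated. The study's supplement calls them age-matched, and the paper states that only male rats were analyzed. SCI-vehicle and SCI-inosine animals were male Sprague Dawley rats whose spinal cord was cut at a thoracic level. At that surgery they were 6 to 7 weeks old and weighed about 250 g. They then received daily intraperitoneal injections for 8 weeks, after which tissue was taken. The injections held either 225 mg/kg/day inosine or its vehicle, 12 mM sodium bicarbonate at pH 9.2. Every comparison with Control therefore contrasts injury together with the injections against neither, whereas SCI-inosine and SCI-vehicle rats differ by the drug in the injection.

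Voiding is driven by the detrusor, a coat of smooth muscle, while the mucosa lines the lumen and keeps urine from the tissue. Transection above the sacral cord interrupts the coordination of bladder and sphincter, so that the muscle contracts against a closed outlet and the wall is known to thicken. Inosine is a purine nucleoside formed from adenosine, and it is studied for protective effects on neurons. Of the steps of the choice, 11091 genes passed the level minimum, 9854 of these lay within 4-fold between Control tissues, 533 did not overlap between Control and injured detrusor, 44 also reached both folds, and 8 of those were removed because SCI-vehicle and Control mucosa did not overlap. Another 392 genes met every condition but the 2-fold limit. The 2 genes nearest the limit outside it had folds of 1.99 and 1.98 in SCI-vehicle and of 2.23 and 1.98 in SCI-inosine. The 2 members nearest the limit inside it had SCI-vehicle folds of 2.03 and 2.04 and SCI-inosine folds of 2.25 and 3.23.

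Genes are identified in the deposited table by Ensembl numbers only, without names. The members are therefore called here by a number, gene 1 to gene 36, in falling order of their mean CPM over the 6 injured detrusor libraries, from 1564 CPM to 4.54 CPM. This number is a handle and not an order of expression between genes, because CPM is not divided by transcript length. Gene 1 is ENSRNOG00000005695 and gene 35 is ENSRNOG00000011181, and these were picked for naming after their values were seen. What the products of the 36 genes do is not described here, and the tissue labels were not checked against cell markers.

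Total counts per library ranged from 4101639 to 6810496 in detrusor and from 3255012 to 5632324 in mucosa. Genes with at least 1 count numbered 14126 in SCI-inosine detrusor 2 and 16475 to 17842 in the other detrusor libraries. SCI-vehicle detrusor 1 stood apart in another way. Over 511 genes with a Control mucosa level above 50 CPM and over 4-fold the Control detrusor level, its median position was 21.5% of the way from the detrusor level to the mucosa level. That share was 1.90% and 1.22% in SCI-vehicle detrusor 2 and 3, 3.14%, 9.56% and 8.11% in SCI-inosine detrusor 1 to 3, and between -1.97% and 1.25% in the Controls.

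By choice all 36 members were higher in injured than in Control detrusor, and the size of the difference varied. With vehicle, the fold over Control was between 2.03 and 5.29, with a median of 2.37. With inosine it was between 2.05 and 11.9, with a median of 2.60. Over all tested genes, 11.7% lay without overlap above Control in SCI-vehicle detrusor and 12.6% in SCI-inosine detrusor. Both folds were under 3 for 20 members, both exceeded 3 for 5 members and both exceeded 5 for 1. The margin that separated the groups was narrow for many members: the lowest injured library was 1.05 to 2.42 times the highest Control library, with a median of 1.28. Together the members took 0.130% to 0.186% of all counts in Control detrusor, 0.288% to 0.429% in SCI-vehicle detrusor and 0.282% to 0.498% in SCI-inosine detrusor. The ranges of the shares in the injured groups overlapped. In these tissue samples, more cells of a type and more RNA per cell cannot be told apart.

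**Figure D1:**
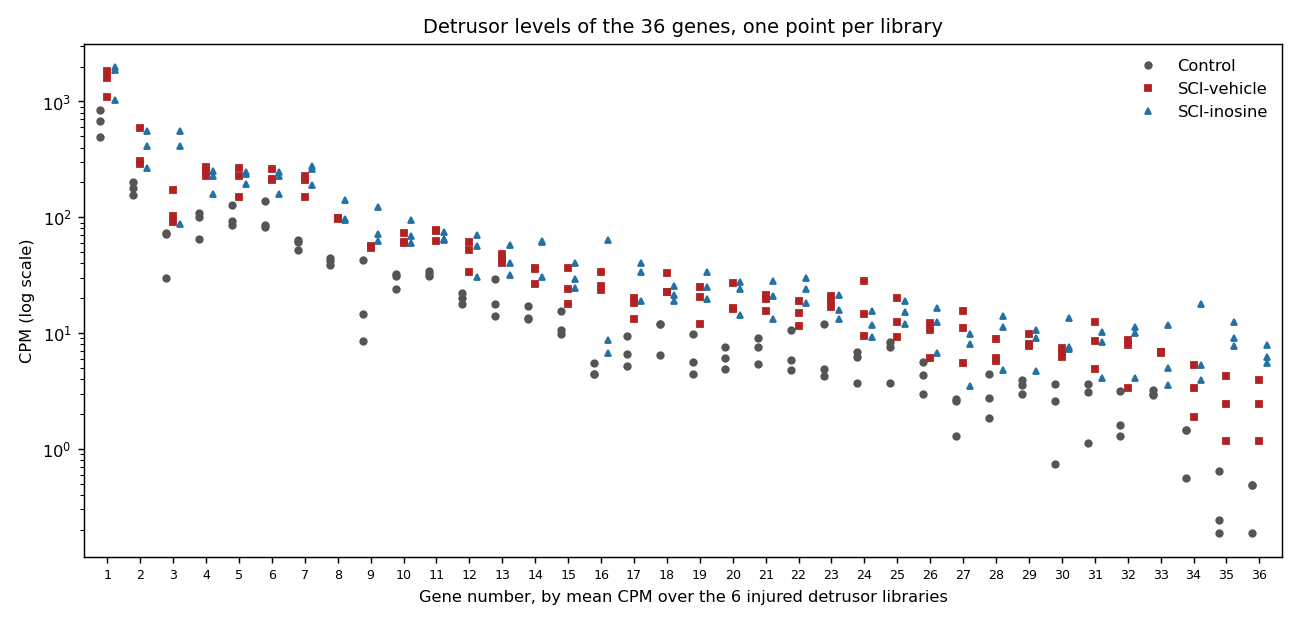
CPM (log scale) of the 36 members in the 9 detrusor libraries, 1 point per library, ordered by mean CPM over the 6 injured libraries. The injured points of each member lie above its Control points, as the choice required, while SCI-vehicle and SCI-inosine ranges overlap for all members but genes 9, 35 and 36.

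The 6 members with the highest CPM are genes 1 to 6. Gene 1 measured 679, 494 and 847 CPM in the 3 Control detrusor libraries, 1089.9, 1591 and 1849.6 CPM in SCI-vehicle and 1024, 1973 and 1857 CPM in SCI-inosine. Its group means were 673 ± 177, 1510.1 ± 386 and 1618 ± 517 CPM (SD, n = 3), so that the injured groups overlapped over most of their range. In the mucosa it was lower, at 421, 185 and 185 CPM in Control, 207, 244 and 151 CPM with vehicle and 367, 296 and 319.7 CPM with inosine.

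Gene 2 measured 155, 178 and 201 CPM in Control detrusor, 287, 305 and 590.1 CPM with vehicle and 269, 561 and 416 CPM with inosine. Unlike gene 1, its Control mucosa level exceeded the detrusor level, and in the mucosa it measured 362, 586 and 519 CPM in Control, 373, 217 and 326 CPM with vehicle and 227, 321 and 407 CPM with inosine. Gene 3 had the widest spread of the first 6 members. It measured 30.2, 73.0 and 72.4 CPM in Control detrusor, 103, 173 and 91.6 CPM with vehicle and 87.8, 551 and 409.8 CPM with inosine. SCI-inosine libraries 2 and 3 were high, while SCI-inosine 1 lay below all 3 SCI-vehicle libraries. In the mucosa gene 3 measured 230.1, 239.7 and 123 CPM in Control, 94.6, 239 and 161 CPM with vehicle and 140.4, 188 and 140.4 CPM with inosine, without separation of the groups.

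Genes 4, 5 and 6 behaved alike in detrusor, with injured means of 2.05- to 2.73-fold over Control and no gap between vehicle and inosine. Gene 4 measured 100.4, 64.4 and 109 CPM in Control detrusor, 227, 252 and 271 CPM with vehicle and 158, 253 and 226 CPM with inosine. Mucosa values were 323, 202 and 218 CPM in Control, 241, 332 and 209.6 CPM with vehicle and 289, 235 and 248 CPM with inosine. The mucosa ranges of the 3 groups overlapped. For gene 5, detrusor values were 93.5, 85.7 and 127 CPM in Control, 149, 269 and 228 CPM with vehicle and 193, 244 and 236 CPM with inosine. Its mucosa libraries held 182, 341 and 241 CPM in Control, 218, 192 and 144 CPM with vehicle and 179.9, 254 and 217 CPM with inosine. Again its mucosa ranges overlapped. Gene 6 measured 82.0, 85.3 and 138 CPM in Control detrusor, 212, 209.9 and 260.2 CPM with vehicle and 158, 245 and 227 CPM with inosine. Mucosa levels were 221, 297 and 197 CPM in Control, 144, 154 and 233 CPM with vehicle and 166, 237 and 234 CPM with inosine. By library totals, Control mucosa lay above Control detrusor in all libraries for each of the 3 genes.

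The 12 members with the largest folds in both injured groups were genes 16, 35, 36, 7, 20, 27, 32, 19, 30, 31, 9 and 21, ordered by the smaller of their 2 folds. Gene 16 led with 5.29-fold in SCI-vehicle and 5.04-fold in SCI-inosine. Its Control detrusor values were 4.47, 5.52 and 4.39 CPM and its SCI-vehicle values 25.4, 23.6 and 33.6 CPM. SCI-inosine values were 63.1, 6.75 and 8.68 CPM, so that replicate 1 carried the group mean and the other two libraries lay below every SCI-vehicle library. In the mucosa gene 16 measured 2.79, 0.178 and 2.68 CPM in Control, 3.59, 6.23 and 1.85 CPM with vehicle and 30.4, 2.46 and 0.729 CPM with inosine. Replicate 1 of SCI-inosine was again the high library, and whether both libraries came from the same rat is not given in the labels. Across the members, the CV of CPM among 3 SCI-inosine detrusor libraries was 8.76% to 122% (median 31.7%), and gene 16 had the highest.

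Gene 7 combined a large fold with many counts. It measured 63.7, 52.4 and 61.4 CPM in Control detrusor, 150.2, 208 and 227 CPM with vehicle and 190.3, 260.4 and 275 CPM with inosine, or 3.28-fold and 4.06-fold. The lowest injured library was 2.36 times the highest Control library. In the mucosa it measured 57.3, 29.7 and 21.9 CPM in Control, 40.0, 47.3 and 48.0 CPM with vehicle and 49.9, 35.3 and 45.7 CPM with inosine.

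Genes 35 and 36 had the largest SCI-inosine folds and the fewest counts. Gene 35 had 1, 4 and 1 counts in Control detrusor, 6, 27 and 16 in SCI-vehicle and 85, 59 and 41 in SCI-inosine. These corresponded to 0.186, 0.649 and 0.244 CPM, 1.18, 4.27 and 2.43 CPM and 12.5, 9.06 and 7.73 CPM, and every SCI-inosine library lay above every SCI-vehicle library. The fold with 0.5 CPM added was 3.64 in SCI-vehicle and 11.9 in SCI-inosine, and the ratio of summed counts to the 6 Control counts, scaled by library totals, was 7.10 (95% exact interval 3.04 to 20.3) and 25.9 (11.7 to 71.4). Such intervals cover counting error only. The choice required both injured groups to lie above Control, so nothing is read from the intervals doing so. Mucosa values of gene 35 were low in all groups, at 0.643, 1.24 and 1.34 CPM in Control, 1.44, 0.804 and 2.64 CPM with vehicle and 1.82, 3.07 and 1.21 CPM with inosine.

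Gene 36 followed the profile of gene 35 closely, with 1, 3 and 2 counts in Control detrusor, 6, 25 and 16 in SCI-vehicle and 54, 36 and 33 in SCI-inosine, or 0.186, 0.487 and 0.488 CPM, 1.18, 3.95 and 2.43 CPM and 7.93, 5.53 and 6.22 CPM. Its ratio of summed counts to Control was 6.81 (2.91 to 19.5) in SCI-vehicle and 17.2 (7.68 to 47.8) in SCI-inosine, with the same limits. Whether the genes overlap or share sequence was not examined, since no annotation of the genome build was used here. In the mucosa gene 36 had 0, 3 and 0 counts in Control, 0, 2 and 3 in SCI-vehicle and 8, 3 and 3 in SCI-inosine. A count of 0 in those libraries allows up to 0.643 to 0.719 CPM.

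The remaining genes of the 12 are given next. Their separation from Control in detrusor was required by the choice. Gene 20 measured 6.15, 4.87 and 7.56 CPM in Control detrusor, 27.3, 16.4 and 16.3 CPM with vehicle and 14.2, 23.9 and 27.5 CPM with inosine. In mucosa it measured 24.2, 12.1 and 10.3 CPM in Control, 23.0, 22.5 and 15.3 CPM with vehicle and 23.1, 10.1 and 11.9 CPM with inosine. Gene 20 was thus close in level between injured detrusor and mucosa. Gene 27 had a larger mean with vehicle than with inosine, at 1.30, 2.60 and 2.68 CPM in Control, 5.50, 15.5 and 11.1 CPM with vehicle and 3.52, 9.82 and 8.11 CPM with inosine. Mucosa values were 3.22, 2.31 and 2.23 CPM in Control, 1.92, 3.42 and 1.06 CPM with vehicle and 2.34, 1.54 and 1.94 CPM with inosine. The ratio of its SCI-inosine to its SCI-vehicle mean, 0.683, was the lowest among the members, although the libraries of the groups overlapped.

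Gene 32 measured 1.30, 1.62 and 3.17 CPM in Control detrusor, 3.34, 8.70 and 7.91 CPM with vehicle and 4.11, 9.98 and 11.3 CPM with inosine. Its mucosa libraries held 6.43, 7.63 and 6.48 CPM in Control, 7.67, 6.84 and 4.75 CPM with vehicle and 5.20, 12.3 and 5.35 CPM with inosine. Its 3 mucosa groups overlapped. Gene 19 measured 4.47, 5.68 and 9.75 CPM, 12.0, 20.4 and 24.8 CPM and 19.7, 33.5 and 25.1 CPM in the same detrusor groups. Mucosa levels were 7.93, 8.70 and 9.83 CPM in Control, 7.19, 7.24 and 10.8 CPM with vehicle and 7.80, 10.1 and 10.2 CPM with inosine. For both, replicate 1 was the lowest library of each injured detrusor group.

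Gene 30 measured 0.745, 2.60 and 3.66 CPM in Control detrusor, 7.47, 6.17 and 6.84 CPM with vehicle and 13.4, 7.21 and 7.54 CPM with inosine. By library totals its group means were higher in the mucosa, and this comparison of tissues depends on scaling. Mucosa values were 7.08, 13.0 and 5.81 CPM in Control, 8.86, 9.25 and 12.9 CPM with vehicle and 13.0, 13.8 and 14.6 CPM with inosine. All 3 inosine libraries of the mucosa lay above both other groups. Gene 31 measured 1.12, 3.08 and 3.66 CPM in Control detrusor, 12.6, 4.90 and 8.52 CPM with vehicle and 4.11, 10.1 and 8.30 CPM with inosine. In mucosa it measured 6.43, 3.91 and 6.48 CPM in Control, 5.99, 2.01 and 7.66 CPM with vehicle and 3.38, 4.92 and 5.10 CPM with inosine. Here SCI-vehicle 1 was the highest injured library and SCI-inosine 1 the lowest.

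Gene 9 varied most among the Controls, at 42.7, 14.6 and 8.53 CPM, with a CV of 83.0% against a median of 30.5% over the members. It measured 56.2, 55.4 and 54.1 CPM in SCI-vehicle and 123, 62.0 and 71.3 CPM in SCI-inosine, and the injured groups did not overlap. Mucosa values were 36.2, 19.5 and 29.7 CPM in Control, 26.4, 23.7 and 40.9 CPM with vehicle and 54.6, 58.7 and 38.1 CPM with inosine. Gene 21 measured 9.13, 7.62 and 5.36 CPM in Control detrusor, 21.4, 15.7 and 19.6 CPM with vehicle and 13.2, 28.2 and 20.7 CPM with inosine. Mucosa values were 58.5, 13.8 and 17.2 CPM in Control, 12.2, 13.5 and 29.0 CPM with vehicle and 20.5, 21.8 and 18.2 CPM with inosine, where the 3 groups overlapped.

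The members at the limit of the choice had modest levels. Gene 25 measured 3.73, 8.44 and 7.56 CPM in Control detrusor, 12.4, 9.17 and 19.9 CPM with vehicle and 11.9, 15.4 and 19.0 CPM with inosine. Its mucosa libraries held 14.2, 18.3 and 13.9 CPM in Control, 13.9, 12.9 and 15.0 CPM with vehicle and 17.4, 13.8 and 12.9 CPM with inosine. None of its mucosa groups stood apart. Gene 22 measured 4.84, 10.7 and 5.85 CPM in Control detrusor, 11.4, 14.9 and 19.0 CPM with vehicle and 18.4, 29.9 and 24.1 CPM with inosine. Mucosa levels were 22.5, 24.5 and 12.1 CPM in Control, 15.1, 4.62 and 19.8 CPM with vehicle and 15.3, 11.1 and 32.3 CPM with inosine. The lowest injured library was 1.09 times the highest Control library for gene 25 and 1.06 times for gene 22.

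**Figure D2:**
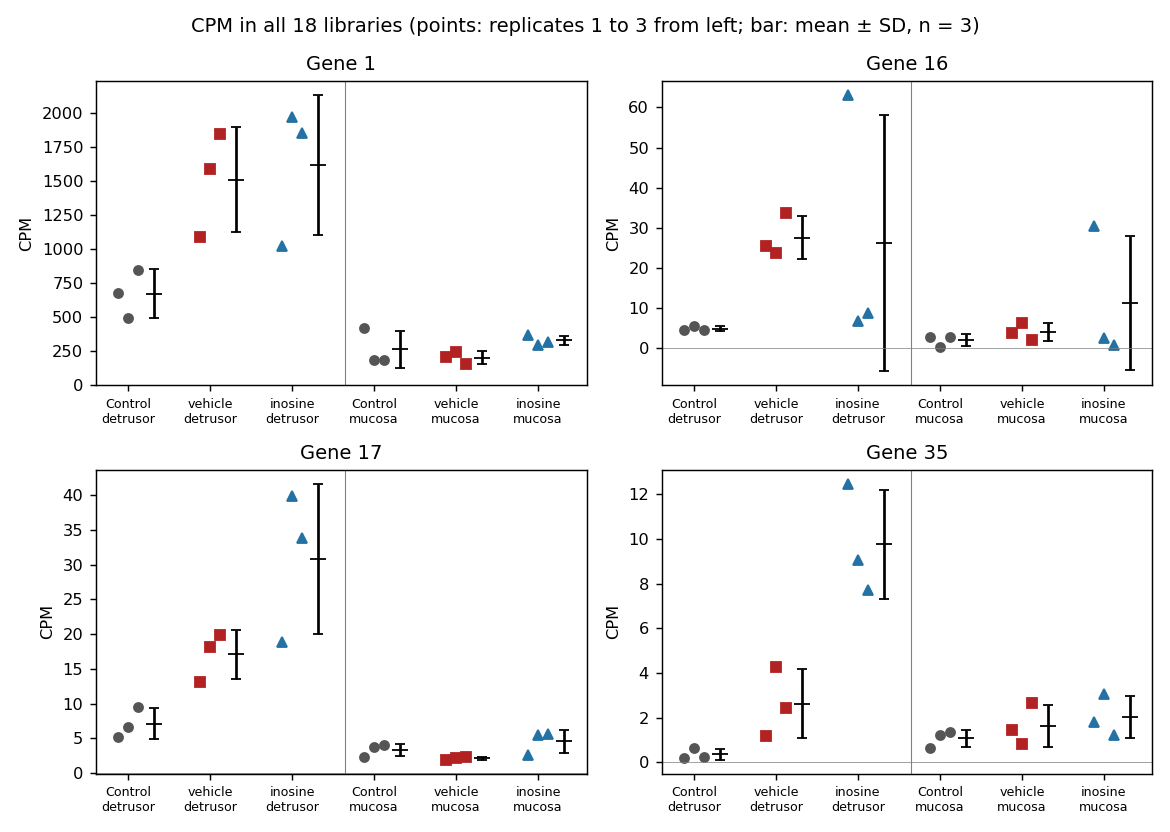
CPM of genes 1, 16, 17 and 35 in all 18 libraries (points, replicates 1 to 3 from left) with the mean ± SD of each group (n = 3). Genes 1 and 17 are higher in both injured detrusor groups, a single SCI-inosine library of each tissue is high for gene 16, and the SCI-inosine detrusor points of gene 35 lie above all SCI-vehicle points.

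Members with many and with few counts both had folds near the limit. The median of the smaller fold was 2.23 for the 8 members above 100 CPM, 2.21 for the 18 members from 10 to 100 CPM and 2.58 for the 10 members below 10 CPM. Of the members, 7 had a Control detrusor library with fewer than 10 counts, where the added 0.5 CPM lowers the fold most, and 2 had such an injured library.

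Libraries of a group were not equal for the members. The median member was 1.02, 1.24 and 1.39 above the Control mean on the log2 scale in SCI-vehicle 1 to 3, and 0.95, 1.67 and 1.5 above it in SCI-inosine 1 to 3. SCI-inosine 1 was the lowest injured library for 15 members and SCI-vehicle 1 for 12, while SCI-inosine 2, the library with the fewest detected genes, was the highest for 15. Control replicate 3 was the highest Control library for 25 members and replicate 1 the lowest for 23. The part of these library differences in the folds was not tested. Without SCI-vehicle 1, the library with the highest share of the mucosa genes, all 36 members kept an SCI-vehicle fold of at least 2. The median fold was then 2.46, and in SCI-vehicle 1 alone it was 2.03. These folds rest on values that the choice used, and SCI-vehicle 1 was often the lowest injured library. Nothing is therefore read from them, and the part of the mucosa genes in the folds was not tested.

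**Figure D3:**
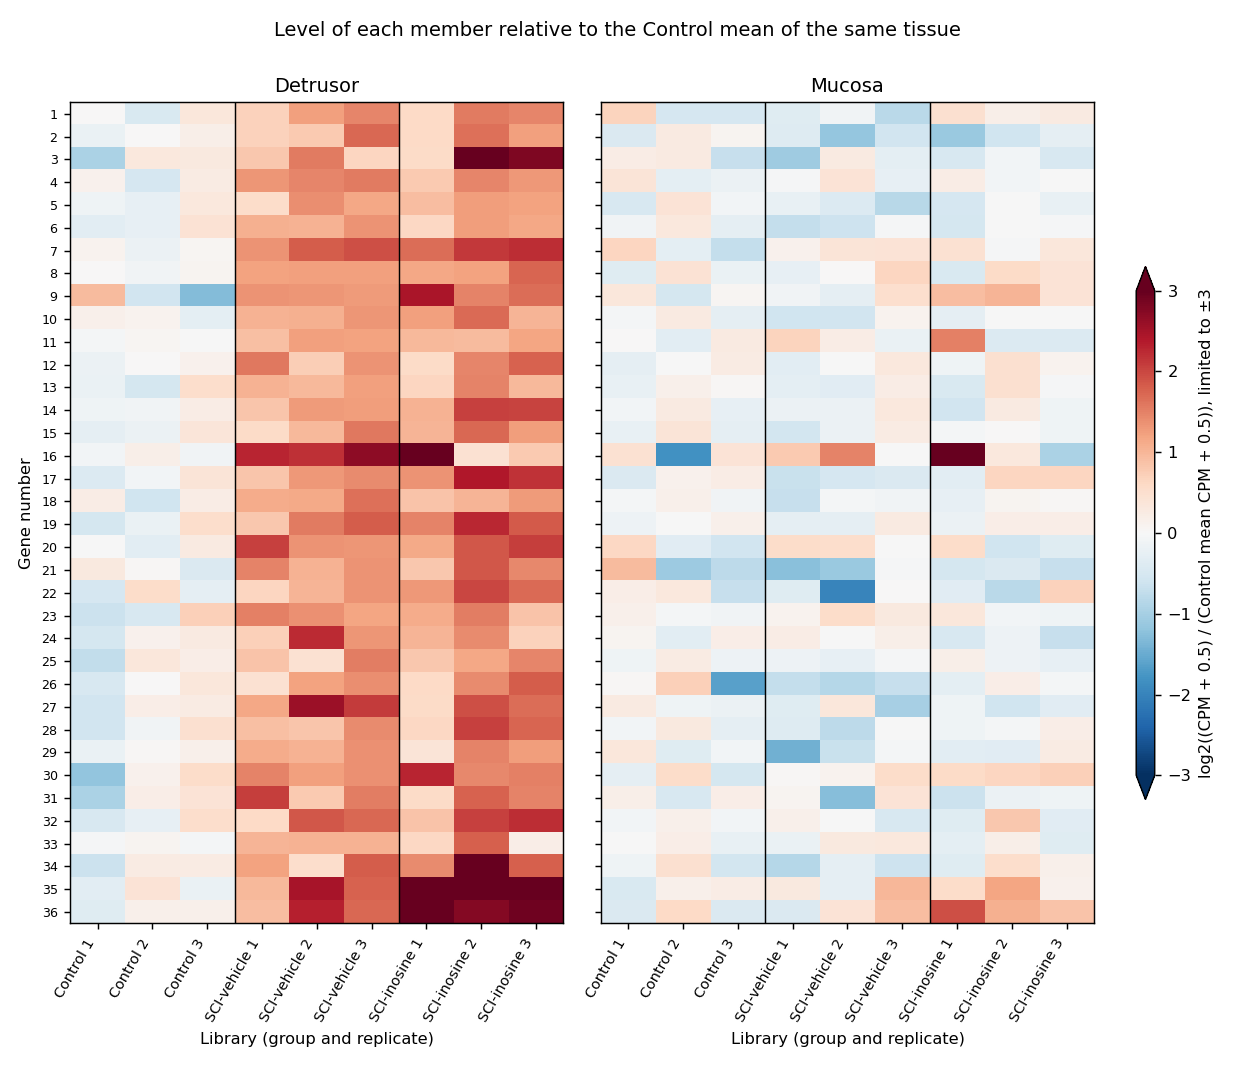
Log2 ratio of CPM to the Control mean of the same tissue (0.5 CPM added to both, color limited to ±3) for the 36 members in 18 libraries. SCI-inosine 1 and SCI-vehicle 1 show the palest injured detrusor columns, with library medians of 0.95 and 1.02, and the mucosa columns have library medians of -0.29 to 0.15. Single genes depart from these mucosa medians, such as genes 11, 16 and 36, higher in SCI-inosine 1, and gene 16, lower in Control 2.

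In Controls, the mucosa held the higher level for most members, within the 4-fold limit of the choice. The mucosa-to-detrusor ratio of mean CPM in Controls ranged from 0.254 to 3.86 with a median of 2.29, and 29 members lay above 1 and 7 below it (21 and 3 of them by more than 2-fold). This split depended on scaling. With TMM factors, which scale libraries to a common bulk of genes (0.769 to 0.920 in detrusor, 1.13 to 1.23 in mucosa), the median ratio was 1.59, with 23 above and 13 below. Of the 29, the SCI-vehicle detrusor mean reached or passed the Control mucosa mean for 12 members, and the SCI-inosine detrusor mean did so for 19. These counts compare means between tissues by library totals, so they also depend on scaling, and they were not repeated with TMM factors. The share of mucosa genes was also above the highest Control in every injured detrusor library but SCI-vehicle 3, and its part in these means was not tested. Genes 1, 7, 11, 16, 17, 24 and 36 were the 7 that were lower in Control mucosa by library totals. Their median fold was 2.95 in SCI-vehicle and 4.06 in SCI-inosine, against 2.32 and 2.58 for the 29 others. The choice bounded these folds, and the split and the folds share the Control detrusor values, so the difference is a description. It was not repeated for the split with TMM factors. Gene 11 had the lowest ratio, 0.254. Its detrusor values were 31.3, 34.1 and 32.7 CPM in Control, 61.9, 78.0 and 75.9 CPM with vehicle and 65.0, 63.6 and 74.5 CPM with inosine. In mucosa it measured 7.93, 6.21 and 9.61 CPM in Control, 12.9, 9.25 and 6.86 CPM with vehicle and 23.4, 5.84 and 5.83 CPM with inosine.

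**Figure D4:**
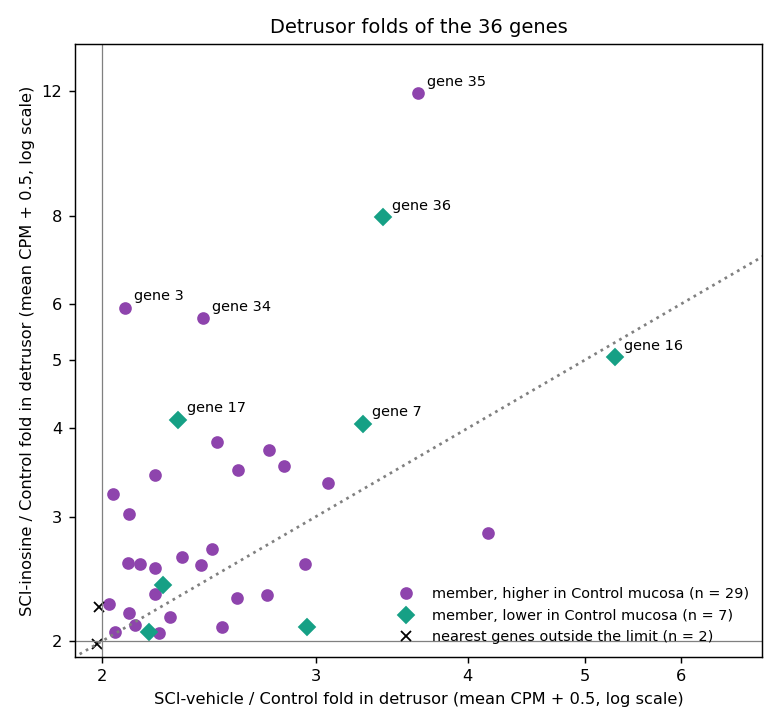
Fold over Control detrusor in SCI-vehicle (x axis) and SCI-inosine (y axis) of the 36 members (mean CPM + 0.5, both axes logarithmic), by whether Control mucosa lay above or below Control detrusor, with the 2 nearest genes outside the limit as crosses. Genes 3, 34, 35 and 36 lie farthest above the dotted line of equal folds, with inosine-to-vehicle ratios of 2.84, 2.37, 3.28 and 2.34, and the solid lines mark the limit of 2.

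The fit across all genes gives the size of the detrusor differences on another scale. It used edgeR's quasi-likelihood test on TMM-scaled counts of 15740 genes, with p-values adjusted by the Benjamini-Hochberg method, and all 36 members passed its filter on low counts. For SCI-vehicle against Control, 3 members passed an adjusted p-value of 0.05 (genes 7, 8 and 11), where 0.0445% of all genes were called higher. For SCI-inosine against Control, 9 passed (genes 7, 8, 10, 11, 14, 17, 20, 35 and 36), where 0.191% of all genes did so. The choice used both contrasts, so nothing is read from these counts, and both share the Control libraries. Median log2 fold changes over the members were 1.24 and 1.35, against 0.01 and -0.01 over all genes. With DESeq2, 23 and 25 members passed, where 1.12% and 1.36% of all genes were called higher. At an unadjusted p-value under 0.05, 35 and 36 members passed, where 7.55% and 7.78% of all genes were higher. The counts of calls depended on single libraries, for the members and for all genes. For SCI-vehicle, 0 members passed without Control 1, 2 or 3 or without SCI-vehicle 2 or 3, where 0 to 4 of all genes were called higher. For SCI-inosine, 0 members passed without Control 1 or 2 or SCI-inosine 2 or 3, where 0 of all genes were called higher, and 14 passed without SCI-inosine 1, where 75 were. The median log2 change over the members remained between 1.12 and 1.40 for SCI-vehicle and between 1.26 and 1.5 for SCI-inosine when 1 library was left out.

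The contrast of inosine with vehicle in the detrusor was not itself a condition, but the choice used the values of both groups and favors like levels, so the counts of members here are a description and are not set against those of all genes as a finding. No member passed edgeR's quasi-likelihood test between SCI-inosine and SCI-vehicle detrusor (0 of 36 at an adjusted p-value under 0.05, background 0.0%), and the lowest adjusted p-value was 0.952. DESeq2 also called 0, with no adjusted p-value for 1 member, where 0.0191% of all genes were called higher and 0.0445% lower. At an unadjusted p-value under 0.05, 5 members were higher with inosine and 0 lower, where 2.67% and 1.71% of all genes were. The median log2 change over the members was 0.08, against -0.03 over all genes, with 22 members above 0 and 14 below. Leaving out 1 library moved this median from -0.02 (without SCI-inosine 3) to 0.24 (without SCI-vehicle 3), and it was also below 0 without SCI-vehicle 1, so it has no stable sign. Mean CPM gave 25 members higher with inosine and 11 lower, with a median ratio of 1.10. For 19 members the 95% interval of the change lay within 2-fold in either direction, for 14 it reached a 2-fold increase or more, and for 4 a 2-fold decrease or more, so a 2-fold effect of inosine on those members lies within the precision of 3 libraries per group.

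Gene 35 had the lowest unadjusted p-value of the members in this comparison. Its log2 fold change was 1.8 (SE 0.50, 95% interval 0.69 to 2.91), with an unadjusted p = 0.00428 and an adjusted p = 0.952 in edgeR, and all 3 SCI-inosine libraries lay above all 3 SCI-vehicle libraries. Over the alternative fits its adjusted p ran from 0.434 to 1. Gene 3 had a log2 fold change of 1.41 (SE 0.52, interval 0.26 to 2.56), with an unadjusted p = 0.0206 and an adjusted p = 0.952 in edgeR (0.504 to 1 over the alternatives). Only 2 of its 3 SCI-inosine libraries exceeded the SCI-vehicle range. Gene 17 measured 5.22, 6.65 and 9.51 CPM in Control detrusor, 13.2, 18.2 and 19.9 CPM with vehicle and 18.9, 39.9 and 33.8 CPM with inosine, a log2 fold change of 0.76 (SE 0.29, interval 0.13 to 1.39) between the injured groups, with an unadjusted p = 0.0225 and an adjusted p = 0.952 in edgeR (0.636 to 1). Its SCI-inosine 1 value lay inside the SCI-vehicle range. Genes 36 and 14 were the other members past the unadjusted threshold. The groups did not overlap for genes 9, 35 and 36, all higher with inosine, which is 8.33% of the members, where 5.59% of all genes did not overlap in that direction. None lay without overlap in the lower direction, where 3.34% of all genes did.

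**Figure D5:**
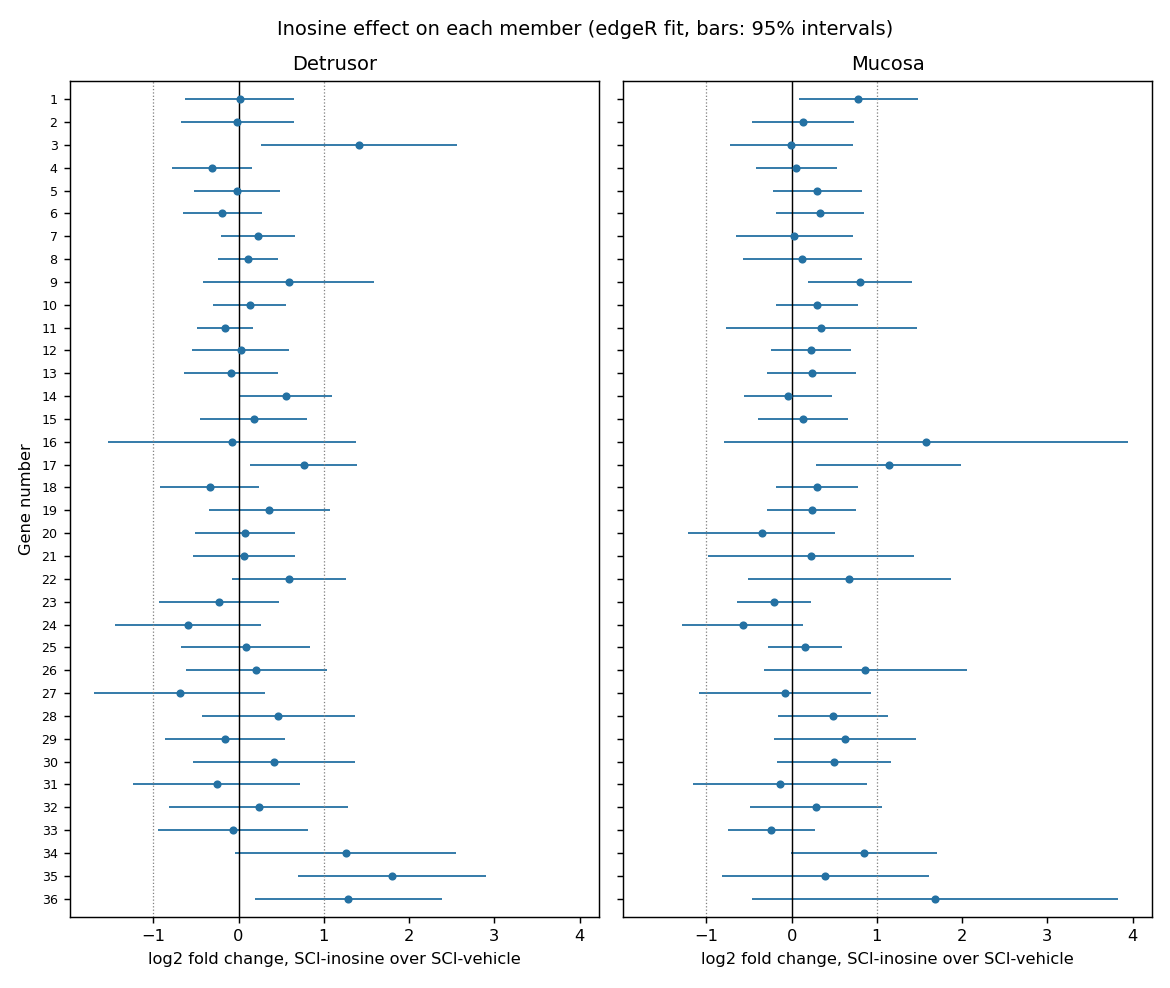
Log2 fold change of SCI-inosine over SCI-vehicle for each member in detrusor (left) and mucosa (right), from the edgeR fit, with 95% intervals; dotted lines mark 2-fold. The median estimate is 0.08 in detrusor and 0.26 in mucosa, and the intervals of genes 3, 14, 17, 35 and 36 in detrusor and of genes 1, 9 and 17 in mucosa do not include 0.

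SCI-inosine mucosa was not used in the choice. Control mucosa was, through the 4-fold limit and the overlap with SCI-vehicle mucosa. The counts of members in this comparison are therefore a description. None of the 36 members passed between SCI-inosine and Control mucosa (0 by edgeR's quasi-likelihood test, background 0.0%, and 0 by DESeq2, which gave no adjusted p-value for 5 and called 0.0826% of all genes higher and 0.0254% lower), and the lowest adjusted p-value was 0.861. At an unadjusted p-value under 0.05, 4 members were higher and 1 lower, where 2.36% and 2.64% of all genes were. The median log2 change was 0.01, against 0.00 over all genes, with 19 members above 0 and 17 below, and the interval lay within 2-fold for 20 members. The interval reached a 2-fold increase for 10 members and a 2-fold decrease for 8.

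Gene 9 had the lowest p-value in this comparison, with a log2 fold change of 0.83 (SE 0.27, interval 0.22 to 1.44), an unadjusted p = 0.0123 and an adjusted p = 0.861 in edgeR (0.571 to 1 over the alternatives). Its 3 SCI-inosine mucosa libraries lay above the Control range, as given above. Gene 36 came next with an unadjusted p = 0.0382 and an adjusted p = 0.971 in edgeR (0.774 to 1, with no value from DESeq2), from 8, 3 and 3 counts against 0, 3 and 0. Gene 16 followed, with a log2 fold change of 2.63 (SE 1.16, interval 0.05 to 5.22), an unadjusted p = 0.0468 and an adjusted p = 0.983 in edgeR (0.739 to 1). That value rested on SCI-inosine mucosa 1, without which it was -0.24. Genes 9, 30 and 36 did not overlap between the groups and were higher in SCI-inosine mucosa, gene 30 only narrowly. They are 8.33% of the members, where 4.21% of all genes did not overlap in that direction and 6.0% in the other.

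Between SCI-inosine and SCI-vehicle mucosa none of the members passed (0 by edgeR's quasi-likelihood test, background 0.00635%, and 0 by DESeq2, which gave no adjusted p-value for 8 and called 0.0699% of all genes higher and 0.0127% lower), with a lowest adjusted p-value of 0.881. At an unadjusted p-value under 0.05, 3 members were higher and 0 lower, where 3.62% and 1.91% of all genes were. The median log2 change was 0.26, against 0.00 over all genes, with 28 members above 0 and 8 below, and 17 intervals lay within 2-fold. The SCI-vehicle libraries are shared with the comparison to Control mucosa, in which the choice had bounded them: their median against Control was -0.18, with 13 members above 0 and 23 below, and 0 members passed there by edgeR, where 0.0% of all genes did. DESeq2 called 0 members there, where 0.146% of all genes were called higher and 0.368% lower, and at an unadjusted p-value under 0.05 edgeR gave 0 members higher and 2 lower, where 4.69% and 5.55% of all genes were.

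Gene 17 had the lowest p-value between SCI-inosine and SCI-vehicle mucosa. It measured 2.36, 3.73 and 4.02 CPM in Control mucosa, 1.92, 2.21 and 2.38 CPM with vehicle and 2.60, 5.53 and 5.59 CPM with inosine. Its log2 fold change was 1.14 (SE 0.38, interval 0.29 to 1.99), with an unadjusted p = 0.0135 and an adjusted p = 0.881 in edgeR (0.256 to 1 over the alternatives). DESeq2 gave no adjusted p-value for this gene. Gene 9 had a log2 fold change of 0.81 (SE 0.27, interval 0.20 to 1.42), with an unadjusted p = 0.0147 and an adjusted p = 0.881 in edgeR (0.405 to 1). For gene 1 it was 0.78 (SE 0.31, interval 0.09 to 1.48), with an unadjusted p = 0.0311 and an adjusted p = 0.881 in edgeR (0.469 to 1). Genes 1, 17, 26 and 30 (gene 30 only narrowly) were higher in SCI-inosine mucosa without overlap, 11.1% of the members against 3.07% of all genes. Gene 24 was lower without overlap, 2.78% against 8.06%. None of these changes passed an adjusted p-value of 0.05 in edgeR. Those of genes 24, 26 and 30 were not under 0.05 before adjustment either (unadjusted p = 0.103, 0.138 and 0.131 in edgeR). The choice used SCI-vehicle mucosa, so these shares are a description. They are on CPM by library total. On the TMM scale of the fit, more of all genes were higher than lower at an unadjusted p-value under 0.05 (3.62% and 1.91%).

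Membership itself depended on the settings. In 15 repeats that each left out 1 of the 9 detrusor or 6 Control and SCI-vehicle mucosa libraries, 27 to 135 genes met the conditions, and 6 members (genes 4, 8, 12, 31, 32 and 36) were kept in every repeat. The largest number arose without Control detrusor 3, the library that was highest for most members. Without SCI-vehicle detrusor 1 there were 46 genes, with all 36 members among them, and without SCI-inosine detrusor 2 there were 31, with 28 of the members. TMM scaling in place of library totals gave 33 genes, 24 of them members, and of the 12 that were lost 8 fell short of a fold. Those lost were genes 2, 6, 11, 13, 17, 18, 22, 24, 25, 26, 32 and 33. Since gene 32 was among them, 5 of the 6 members kept in every repeat were also kept with TMM scaling.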

How the data were processed

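Total RNA of both bladder layers was measured in 18 libraries, 3 per tissue and treatment group. As the study's methods describe, the authors depleted ribosomal RNA, sequenced paired-end reads on 2 flow cells and summed the counts for each sample. Per the labels the libraries were stranded, and the submitters' processing notes name FastQC 0.11.9, Trim Galore 0.6.10, STAR 2.7.10a, SAMtools 1.17, featureCounts 2.0.3, MultiQC 1.13 and the build Rnor_6.0; the annotation is not given in the sources used here. The deposited values are whole-number read counts for 32754 genes without normalization, and 0 columns were unused.

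Each library was assigned by its label. Members were found from CPM (library total), and levels are CPM. The 15740 genes above 1 CPM in 3 or more libraries entered the tests, made with edgeR 4.0.16 (TMM scaling, quasi-likelihood F test, two-sided, the 9 libraries of a tissue fitted together, Benjamini-Hochberg adjustment, threshold 0.05) in R 4.3.3, with DESeq2 1.42.0, other filters, scalings and sample sets, an unadjusted threshold, the replicate number as a block and each library left out as alternatives. The biological coefficient of variation was 26.5% in detrusor and 20.0% in mucosa, which with 3 libraries sets the precision. The scripts were tested on simulated data. No group held a repeated library.

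The study's supplement calls the replicates biological, while the labels name no animals, so p-values measure the spread between these libraries. Values in every library are given for the 12 members with the largest smaller fold, the 6 with the highest CPM, the 3 with the lowest p in SCI-inosine against SCI-vehicle of either tissue and in SCI-inosine against Control mucosa and the 2 nearest the limit. The members and lists were chosen with earlier results of these data known. The reference tables used here do not pair Ensembl numbers with names, 0 of the members matched, and gene lists, cell markers and promoter motifs planned for this work were not run.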

Additional observations from a re-analysis of the deposited data

How the results depend on the processing

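The 36 members became 124 with a 1.5-fold limit, 5 with a 3-fold limit and 155 without the mucosa conditions, and 27 to 135 when 1 library was left out. For SCI-vehicle against Control detrusor, 3 members passed in edgeR, 23 with DESeq2, 20 without a filter on low counts, 35 at an unadjusted p-value under 0.05, and 0 to 2 when 1 library was left out. Over all genes 7 were called higher in edgeR, 177 with DESeq2, 105 without the filter and 0 to 4 with 1 library left out. For SCI-inosine against Control detrusor, 9 passed, and 25 with DESeq2, 21 without the filter, 2 with only the 2 groups in the fit, 15 with all 18 libraries in the fit, 36 at an unadjusted threshold, and 0 to 14 when 1 library was left out (5 without Control 3). Calls over all genes moved with them: 30 were higher in edgeR, 214 with DESeq2, 113 without the filter, 9 with only the 2 groups, 102 with all 18 libraries and 0 to 75 with 1 library left out. At the unadjusted threshold 5 members passed for SCI-inosine against SCI-vehicle detrusor, 3 for SCI-inosine against SCI-vehicle mucosa, 2 for SCI-vehicle against Control mucosa and 5 for SCI-inosine against Control mucosa; under every other alternative run, these 4 comparisons gave 0. The median change of SCI-inosine over SCI-vehicle mucosa was 0.17 to 0.43 when 1 library was left out (0.37 without SCI-inosine 1 and 0.43 without SCI-vehicle 3). Gene 16 in SCI-inosine against Control mucosa was -0.24 to 3.18 when 1 library was left out, the lowest value without SCI-inosine 1. The cause was not tested.

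With the replicate number as a block, 2 members passed for SCI-vehicle against Control detrusor, 12 for SCI-inosine against Control detrusor and 0 in the other 4 comparisons, where 5 and 56 of all genes were called higher in the first pair. Libraries of equal number deviated from their group means with correlations of -0.12 to 0.24 in detrusor (2 of 9 over 0.1) and -0.26 to 0.46 in mucosa (5 of 9 over 0.1), so within a tissue the numbers were not taken to pair the samples; whether detrusor and mucosa of equal number share a rat was not examined. The block for the medians and the alternatives for single genes were chosen after seeing the data. For single genes these alternatives were DESeq2, its size factors, the block and each library left out, without the other filters and sample sets. Depth limits the genes with fewest counts: filterByExpr left 3 members untested in mucosa.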
